A study of Mus musculus with 26 samples.

Results

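Effector conventional CD4+ T cells (Teff) were compared with naive conventional CD4+ T cells (Tnaive) in 4 of the 26 poly(A) RNA-seq libraries of the study, 2 libraries of each population. Membership followed the sample titles and sort gates alone, and all genes were considered. Teff were the CD4+hCD2- cells with low CCR7, and Tnaive the CD4+hCD2- cells with high CCR7 and low CD44, each gate with a further surface stain. Both came, freshly sorted, from the spleen and lymph nodes of C57BL6/J mice. Their Foxp3-IRES-hCD2 genotype puts human CD2 (hCD2) on cells that express Foxp3, so that the hCD2- gate leaves regulatory T cells (Treg) out. The gates as labelled name no T cell receptor or CD3 stain, and the Teff gate names no CD44 criterion. The effector Treg (eTreg) and central Treg (cTreg) libraries of the same study, 2 of each, gave the comparison in the last part. The labels state neither age nor sex, nor whether the 2 libraries of a population came from separate animals. Unless a fit of fewer libraries is named, p-values measure only the spread between libraries of a group, estimated over all 26 libraries. This spread may be technical.

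Naive T cells recirculate through lymphoid organs by means of homing receptors such as CCR7, and stay small and quiescent under factors such as Foxo1, Tcf7, Lef1 and Bach2. After antigen encounter, conventional CD4+ T cells lose such receptors and acquire adhesion molecules, inflammatory chemokine receptors and lineage factors: Tbx21 (T-bet) for T helper 1 (Th1), Gata3 for T helper 2 (Th2) and Bcl6 for follicular helper (Tfh) cells, while T helper 17 (Th17) cells use Rora among others. A CD4 gate without a T cell receptor stain can also admit other CD4-bearing cells, among them plasmacytoid dendritic cells, some conventional dendritic cells and innate-like T cells.

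The tables held 9780591 and 10392428 reads in Teff, against 9774025 and 9886572 in Tnaive, over 24411 genes. At least 1 read was seen for 14710 and 14784 genes in Teff, against 13536 and 13733 in Tnaive. Cytosolic ribosomal protein genes took 1.47% and 1.53% of reads in Teff, against 2.31% and 2.52% in Tnaive. Levels below are CPM, counts scaled to a common library size. They are not divided by gene length, so they compare libraries and not genes. Changes are log2 fold changes of Teff over Tnaive with an approximate standard error (SE), and calls are genes with an edgeR quasi-likelihood adjusted p below 0.05.

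The genes behind the gate followed the labels. Ccr7 had 90.6 and 89.95 CPM in Teff, against 642 and 655 CPM in Tnaive (log2 fold change -2.84 ± 0.35, edgeR adjusted p = 2.95e-06). Cd44, the hyaluronan receptor that rises on antigen-experienced T cells, had 507 and 486 CPM in Teff, against 52.3 and 44.5 CPM in Tnaive (log2 fold change 3.36 ± 0.15, edgeR adjusted p = 5.28e-12). Cd4 stood at 1343 and 1523 CPM in Teff, against 1183 and 1141 CPM in Tnaive (log2 fold change 0.30 ± 0.11, edgeR adjusted p = 0.0336), a call lost without Teff 2 (edgeR adjusted p = 0.29), Tnaive 1 (0.088) or Tnaive 2 (0.17). Foxp3 (chromosome X, 7573644 to 7595245), the defining Treg factor, had 0.293 and 0.274 CPM in Teff, against 2.34 and 3.196 CPM in Tnaive (log2 fold change -3.24 ± 0.44, edgeR adjusted p = 9.16e-06), against 503 ± 26.5 CPM in eTreg (mean ± SD, n = 2). The sort was made on the proteins of Ccr7, Cd44 and Cd4, so their values check the labels and are no finding.

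Of 12227 genes tested, 4312 were called (35.3%), 2595 higher in Teff (21.2%) and 1717 lower (14%). Large changes leaned to one side: 1199 genes were called at least 4-fold higher and 154 at least 4-fold lower, by the fitted change. Among the genes called higher, 213 had no read in either Tnaive library. Both Teff libraries lay on the same side of both Tnaive libraries in 4309 of the called genes. The exceptions were Fosb, Gadd45g and Zfp516, whose calls rested on single libraries. Fosb was not called without Teff 2 (edgeR adjusted p = 0.79), Tnaive 1 (0.245) or Tnaive 2 (0.058). Gadd45g was not called without Teff 2 (0.53) or Tnaive 1 (0.22), nor Zfp516 without Teff 1 (0.57) or Tnaive 1 (0.19); Gadd45g and Zfp516 were chosen after their values were seen. The median log2 fold change over all tested genes was 0.0094.

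**Figure D1:**
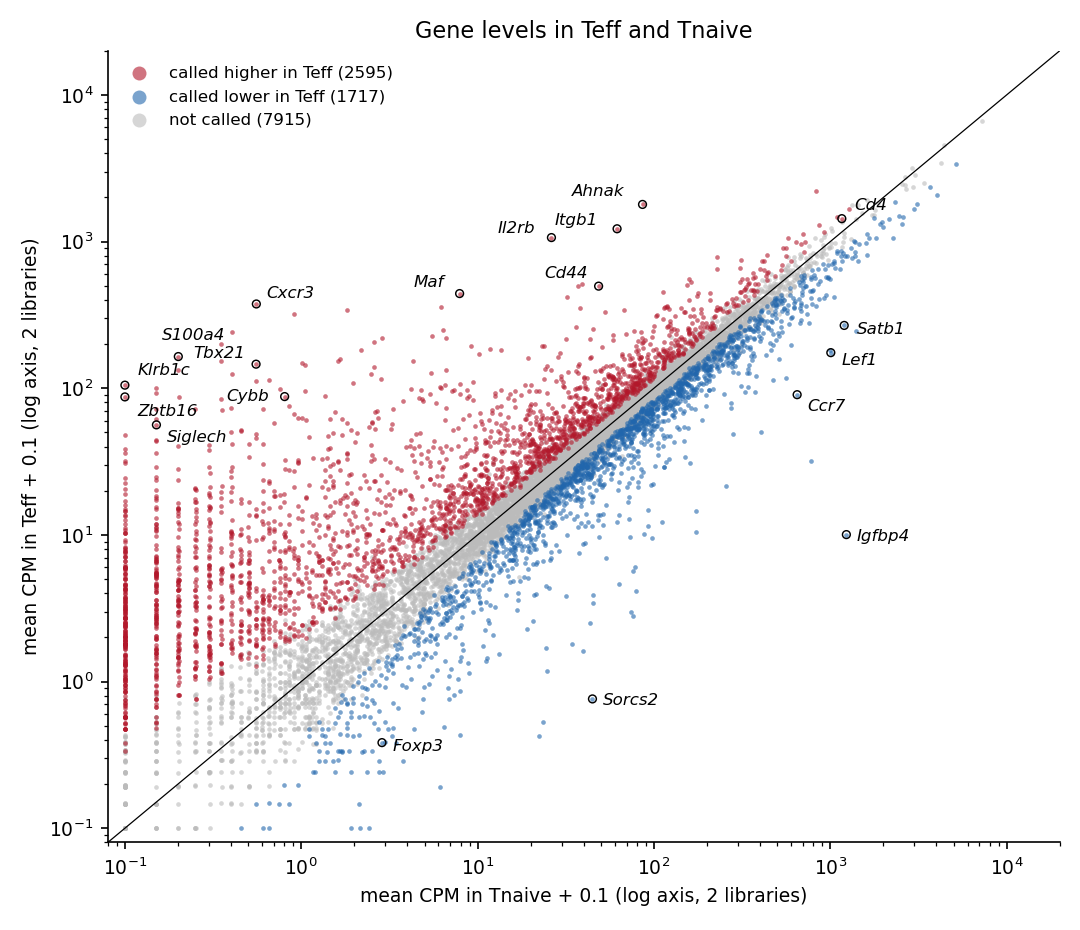
Mean CPM in Teff (vertical axis) against mean CPM in Tnaive (horizontal axis) for the 12227 tested genes, both as CPM + 0.1 on log axes, each a mean of 2 libraries. Red points were called higher in Teff (2595), blue points lower (1717), and the diagonal marks equal levels; Cxcr3, Klrb1c and Zbtb16 lie far above it, and Igfbp4 and Sorcs2 far below.

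The 10 largest rises by the naming rule were genes with no read in Tnaive, so their folds are lower bounds against a floor of 3 reads over the Tnaive group, covering counting error only. The ranking, by fitted change, is uncertain, since genes with few Tnaive reads, such as Il9r and S100a4 below, had count ratios above these bounds. Klrb1c (chromosome 6, 128778485 to 128789215), which encodes the NK1.1 receptor of natural killer (NK) and NKT cells, had 126 and 84.02 CPM in Teff and was at least 688-fold higher. Zbtb16 (chromosome 9, 48654297 to 48836222), which encodes PLZF, the factor of innate-like T cells, had 107 and 67.5 CPM in Teff and was at least 572-fold higher. Both were higher in the first Teff library than in the second. Cebpa, a factor best known from myeloid cells, had 29.8 and 66.1 CPM in Teff (at least 321-fold), higher in the second. Serpina3f (at least 251-fold), the protease inhibitor, and Fgl2 (at least 235-fold), a secreted fibrinogen-like protein, followed. The phosphatase Ptpn5 (at least 212-fold), the matrix protein Fbn2 (at least 207-fold), the channel Trpm6 (at least 159-fold), Adam11 (at least 146-fold) and the integrin chain Itgb8 (at least 137-fold) completed the set. Of these, Cebpa, Fbn2 and Adam11 were not called in a fit of the 4 libraries alone (edgeR adjusted p 0.0505 to 0.0983). Values of close paralogs such as the Klr and Serpina3 genes are uncertain, since reads can be shared between copies.

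The largest fall was that of Igfbp4 (chromosome 11, 99041244 to 99054392), a secreted binding protein of insulin-like growth factors, at 8.31 and 11.6 CPM in Teff, against 1185 and 1281 CPM in Tnaive (log2 fold change -6.95 ± 0.22, edgeR adjusted p = 4.07e-13). Sorcs2, a sorting receptor, had 0.684 and 0.639 CPM in Teff, against 42.3 and 47.1 CPM in Tnaive (log2 fold change -6.06 ± 0.43, edgeR adjusted p = 2.36e-09). Ampd1, AMP deaminase, had 0.195 and 0.456 CPM in Teff, against 20.4 and 24.1 CPM in Tnaive (log2 fold change -6.03 ± 0.47, edgeR adjusted p = 7.58e-09). The libraries of the 2 groups were far apart in each of these genes. Tmem108 had 2 reads over both Teff libraries, and its count ratio, Tnaive over Teff, was 64.1 (95% exact interval 17.4 to 536). The protease Adamts14 changed by -5.75 ± 0.51 and the receptor kinase Acvrl1 by -4.804 ± 0.33. Cnn3, an actin-binding calponin, changed by -4.699 ± 0.26, the adhesion protein Amigo2 by -4.69 ± 0.23 and the glutamate receptor Grm6 by -4.53 ± 0.56 (edgeR adjusted p at most 3.45e-06 in these 5). Among genes of higher read level that fell at least 4-fold, the kinase Pdk1, which restrains pyruvate entry into mitochondria, had 121 and 114 CPM in Teff, against 543 and 576 CPM in Tnaive (log2 fold change -2.25 ± 0.10, edgeR adjusted p = 7.65e-12). Vipr1, the receptor of vasoactive intestinal peptide, had 56.97 and 42.7 CPM in Teff, against 426 and 386 CPM in Tnaive (log2 fold change -3.03 ± 0.20, edgeR adjusted p = 1.28e-09).

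Promoter sequence is shown for genes at the ends of these changes and for 3 that hold an AP-1 site, since AP-1 is the family of the T cell factor BATF studied in the series. Promoters are RefSeq windows on GRCm38.p6, from 250 bases before to 50 bases after a gene's start, read 5′ to 3′ on the gene's strand. Capitals mark the motifs searched on both strands: TGANTCA (AP-1), AGGTGT (T-box) and CTTTGA (TCF/LEF). Cxcr3 (chrX:101734098-101734397, minus strand) was the Th1 gene of highest read level among the rises, and Igfbp4 (chr11:99040994-99041293, plus strand) the largest fall. None of the 3 motifs was found in either window.
Cxcr3: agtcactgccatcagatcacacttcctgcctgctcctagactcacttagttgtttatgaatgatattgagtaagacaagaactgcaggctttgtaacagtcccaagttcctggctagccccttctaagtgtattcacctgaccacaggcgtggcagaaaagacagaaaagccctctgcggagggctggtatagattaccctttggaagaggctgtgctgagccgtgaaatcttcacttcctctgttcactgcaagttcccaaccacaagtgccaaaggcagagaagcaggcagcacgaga
Igfbp4: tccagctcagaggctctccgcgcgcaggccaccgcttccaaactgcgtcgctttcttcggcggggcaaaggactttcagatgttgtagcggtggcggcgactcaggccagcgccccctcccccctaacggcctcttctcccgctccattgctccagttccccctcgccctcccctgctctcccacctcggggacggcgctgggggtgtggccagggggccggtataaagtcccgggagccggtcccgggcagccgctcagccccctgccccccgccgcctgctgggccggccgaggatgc
Ccr4 (chr9:114496495-114496794, minus strand), Tnfsf14 (chr17:57194132-57194431, minus strand) and S100a11 (chr3:93520246-93520545, plus strand) were chosen from the gene lists after their motif matches were seen. Ccr4 held an AP-1 and a TCF/LEF match, Tnfsf14 an AP-1 match, and S100a11 2 AP-1 matches and a TCF/LEF match.
Ccr4: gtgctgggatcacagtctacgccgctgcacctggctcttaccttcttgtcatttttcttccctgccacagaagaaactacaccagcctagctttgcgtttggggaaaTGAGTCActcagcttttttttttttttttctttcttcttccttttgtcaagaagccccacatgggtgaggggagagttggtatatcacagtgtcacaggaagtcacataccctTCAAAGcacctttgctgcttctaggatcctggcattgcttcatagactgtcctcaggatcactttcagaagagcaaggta
Tnfsf14: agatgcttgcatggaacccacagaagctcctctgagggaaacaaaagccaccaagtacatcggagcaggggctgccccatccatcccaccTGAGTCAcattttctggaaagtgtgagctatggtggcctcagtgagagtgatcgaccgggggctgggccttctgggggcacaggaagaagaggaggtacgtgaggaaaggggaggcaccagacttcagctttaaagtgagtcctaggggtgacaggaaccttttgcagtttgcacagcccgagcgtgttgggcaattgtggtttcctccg
S100a11: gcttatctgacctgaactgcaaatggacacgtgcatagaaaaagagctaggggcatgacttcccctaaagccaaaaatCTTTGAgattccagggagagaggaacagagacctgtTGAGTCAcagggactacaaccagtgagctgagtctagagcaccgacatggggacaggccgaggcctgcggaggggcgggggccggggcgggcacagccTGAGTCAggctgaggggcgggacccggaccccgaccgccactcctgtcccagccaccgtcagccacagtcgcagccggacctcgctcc
Of the tested genes, 7443 had exactly 1 promoter window. The AP-1 letters were in 8.08% of windows of genes called at least 4-fold higher (668 windows), in 6.48% of those of all genes called higher (1497), in 3.66% of those called lower (1037), in 4.49% of those at least 4-fold lower (89), and in 4.46% over all. For the T-box letters the shares were 13% at least 4-fold higher, 13.1% higher, 11.3% lower, 12.4% at least 4-fold lower and 10.9% over all. For the TCF/LEF letters they were 13%, 12.2%, 10.7%, 10.1% and 11.9% in the same order. These shares are descriptions of the windows and say nothing of binding.

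Genes of the naive and quiescent state fell broadly in Teff. Of 27 listed genes, all tested, 21 were called lower, 77.8% against 14% of all tested genes, and the list's median log2 fold change was -1.25. The list holds genes of proteins used in the sort, Ccr7 among them. Of the 25 others, 19 were called lower (76%), with a median of -1.19. Lef1, a TCF family factor, had 178 and 172 CPM in Teff, against 1018 and 995 CPM in Tnaive (log2 fold change -2.53 ± 0.12, edgeR adjusted p = 1.82e-11). Satb1, a chromatin organiser, had 295 and 241 CPM in Teff, against 1161 and 1236 CPM in Tnaive (log2 fold change -2.16 ± 0.14, edgeR adjusted p = 5.3e-10). Bach2, a repressor that holds back effector genes, had 50.4 and 47.4 CPM in Teff, against 278 and 282 CPM in Tnaive (log2 fold change -2.52 ± 0.11, edgeR adjusted p = 4.51e-12). In all of these, the 2 libraries of a population lay close together and well apart from the other population. Tcf7, the partner of Lef1, fell less (1306 and 1564 against 2066 and 2225 CPM, log2 fold change -0.58 ± 0.11, edgeR adjusted p = 0.000388). Foxo1 changed by -1.14 ± 0.10 and Foxp1 by -1.25 ± 0.10, and S1pr1, the receptor for exit from lymph nodes, by -1.27 ± 0.12. The small protein Dapl1 fell to 3.81 and 4.29 CPM in Teff, against 78.0 and 79.1 CPM in Tnaive. Als2cl and the actin cross-linker Actn1 changed by -2.51 and -2.44 (edgeR adjusted p at most 4.82e-06).

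The list also held genes that did not fall. Ly6c2 rose (43.5 and 19.1 against 1.32 and 0.399 CPM, log2 fold change 5.17 ± 0.46, edgeR adjusted p = 4.72e-08) while its neighbour paralog Ly6c1 fell (5.08 and 4.01 against 68.3 and 58.8 CPM, log2 fold change -3.81 ± 0.18, edgeR adjusted p = 1.35e-11), and reads may be shared between these near-identical copies. Klf2, Il7r, Ets1, Btg1 and Slfn2 were not called. Il7r, the interleukin-7 receptor that naive and memory cells both need, stood at 649.9 and 525 CPM in Teff, against 678 and 622 CPM in Tnaive, with overlapping libraries. Klf2, which drives S1pr1, stood at 349.6 and 296 CPM in Teff, against 529 and 494 CPM in Tnaive (log2 fold change -0.66 ± 0.41, edgeR adjusted p = 0.232), and was called lower in a fit of the 4 libraries alone (0.000551).

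Surface molecules of activated and memory cells rose. Of 24 members, 21 were called higher (87.5%, against 21.2% of all tested genes) with a median log2 fold change of 1.55. Itgb1, the shared beta chain of the VLA integrins, had 1160.1 and 1284 CPM in Teff, against 63.04 and 60.3 CPM in Tnaive (log2 fold change 4.31 ± 0.15, edgeR adjusted p = 5.32e-13). Itgal, the alpha chain of LFA-1, had 2242 and 2177 CPM in Teff, against 851 and 805 CPM in Tnaive (1.42 ± 0.10). Icos, a costimulatory receptor, had 316 and 350.1 CPM in Teff, against 53.5 and 52.1 CPM in Tnaive (2.66 ± 0.17). The TNF family ligand Tnfsf14 (LIGHT) rose most among them, at 159.6 and 137 CPM in Teff, against 1.02 and 0.799 CPM in Tnaive (log2 fold change 7.33 ± 0.32, edgeR adjusted p = 4.51e-12), followed by Itgae, the alpha chain that binds E-cadherin (5.15 ± 0.31), and Tnfsf11 (RANKL, 4.48 ± 0.19). Cd69, Itgb7 and Cd2 were not called. The early activation marker Cd69 stood at 63.1 and 62.3 CPM in Teff, against 89.1 and 78.6 CPM in Tnaive. Of the proteins of this list, the labelled gates used CD44 only, in Tnaive.

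Genes of all 4 helper programmes were higher in Teff. Of 16 tested Th1 genes (of 19), 14 were called higher (87.5%, against 21.2% of all tested genes). Their median log2 fold change was 5.50, or 3.98 with genes that had no Tnaive read set to their bounds. Cxcr3 (chromosome X, 101731535 to 101734269), the receptor of interferon-induced chemokines, had 408 and 343 CPM in Teff, against 0.713 and 0.1997 CPM in Tnaive (log2 fold change 9.66 ± 0.45, edgeR adjusted p = 8.93e-12). Tbx21 had 168 and 124 CPM in Teff, against 0.509 and 0.399 CPM in Tnaive (log2 fold change 8.29 ± 0.43, edgeR adjusted p = 4.32e-11). Il18rap, a chain of the interleukin-18 receptor, had 175 and 129.6 CPM in Teff, against 1.53 and 1.498 CPM in Tnaive (log2 fold change 6.64 ± 0.22, edgeR adjusted p = 4.22e-13). Both Teff libraries stood far above both Tnaive libraries in each of these genes. The chemokine gene Ccl5 had 254 and 228 CPM in Teff, against 0.306 and 0.2996 CPM in Tnaive. Cxcr6 had 436 and 245 CPM in Teff, against 1.63 and 1.798 CPM in Tnaive. The cytokine Ifng had 25.3 and 46.6 CPM in Teff, against 0 and 0.0999 CPM in Tnaive (count ratio 721, 129 to 28495, the ratio of Teff reads over Tnaive reads with its 95% exact interval, as in later count ratios). Eomes, the sister factor of T-bet, rose less (17.98 and 21.7 against 2.85 and 4.19 CPM, log2 fold change 2.49 ± 0.33, edgeR adjusted p = 6.58e-06). Runx3 (219 and 169 against 129 and 130.0 CPM) and Lta (30.2 and 28.5 against 27.3 and 23.8 CPM) were not called.

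In the Th2 list 10 of 11 tested genes (of 14) were called higher (90.9%, against 21.2% of all tested genes), the exception being Areg. Gata3 had 192 and 183 CPM in Teff, against 86.5 and 86.8 CPM in Tnaive (log2 fold change 1.11 ± 0.15, edgeR adjusted p = 7.4e-06). Maf, a factor of Th2 and Tfh cells, had 366 and 518 CPM in Teff, against 6.93 and 8.69 CPM in Tnaive (log2 fold change 5.82 ± 0.32, edgeR adjusted p = 7.66e-11). Il4 was at least 83.3-fold higher, with 12.6 and 12.6 CPM in Teff and no read in Tnaive, whereas Il5 had 5 reads over the Teff libraries and 1 over the Tnaive libraries. Ccr4 had 109 and 68.3 CPM in Teff, against 1.73 and 0.799 CPM in Tnaive (log2 fold change 6.12 ± 0.41, edgeR adjusted p = 9.99e-10).

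In the Th17 list 9 of 12 tested genes (of 13) were called higher (75%, against 21.2% of all tested genes). Rora, a factor of Th17 and innate-like cells, had 201 and 169 CPM in Teff, against 11.6 and 11.8 CPM in Tnaive (log2 fold change 3.98 ± 0.21, edgeR adjusted p = 3.62e-11). Ccr6, the receptor of CCL20, had 29.3 and 17.97 CPM in Teff, against 0.102 and 0 CPM in Tnaive. The aryl hydrocarbon receptor gene Ahr had 33.8 and 32.02 CPM in Teff, against 2.85 and 2.097 CPM in Tnaive (log2 fold change 3.73 ± 0.24, edgeR adjusted p = 6.73e-10). Il17a had 1.47 and 1.19 CPM in Teff and no read in Tnaive (at least 8.73-fold higher), and Il17f (0.782 and 0.456 against 0.407 and 0.1997 CPM) was not called.

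In the Tfh list 14 of 15 genes were called higher (93.3%, against 21.2% of all tested genes), all but Btla. Cxcr5, which guides cells into B cell follicles, had 179 and 259 CPM in Teff, against 3.26 and 2.297 CPM in Tnaive (log2 fold change 6.296 ± 0.30, edgeR adjusted p = 1.12e-11). Pdcd1, the inhibitory receptor PD-1, had 169.6 and 329.6 CPM in Teff, against 6.01 and 6.49 CPM in Tnaive (log2 fold change 5.32 ± 0.40, edgeR adjusted p = 5.44e-09). Bcl6 had 80.9 and 125 CPM in Teff, against 27.7 and 33.2 CPM in Tnaive (log2 fold change 1.76 ± 0.18, edgeR adjusted p = 2.05e-07). Tox2 had 61.9 and 106 CPM in Teff, against 0.204 and 0.2996 CPM in Tnaive (log2 fold change 8.32 ± 0.75, edgeR adjusted p = 5.5e-08). The cytokine Il21 had 42.1 and 102 CPM in Teff, against 0.102 and 0.1997 CPM in Tnaive (count ratio 483, 165 to 2347). The second Teff library was above the first in each of these. Without it, the list's median fell to 1.56, against 1.98 with both. Whether the Teff reads of the different programmes came from the same cells cannot be told from bulk RNA, nor can more cells of a kind and more RNA per cell be told apart.

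**Figure D2:**
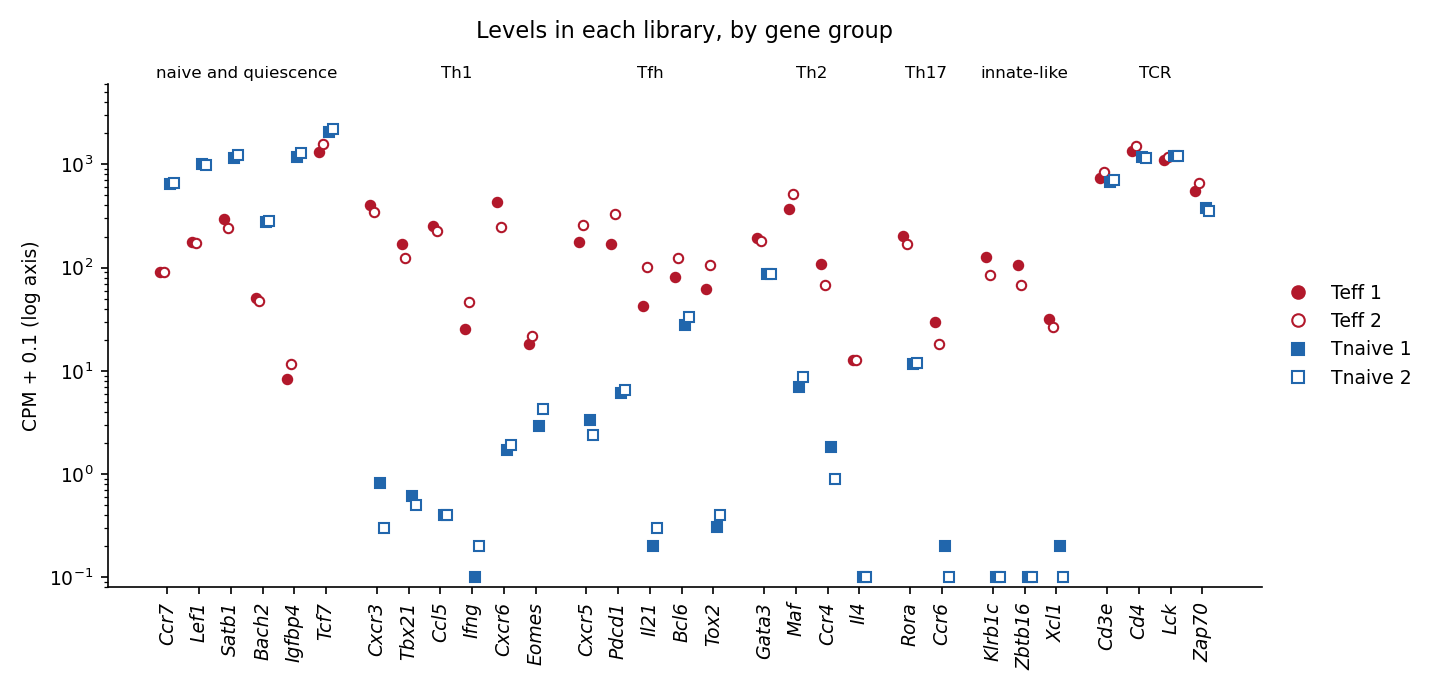
CPM + 0.1 (log axis) of selected genes in each library, grouped by function. Red circles are Teff (filled Teff 1, open Teff 2) and blue squares Tnaive (filled Tnaive 1, open Tnaive 2); the helper genes and innate-like genes lie higher in Teff, the naive genes lower, and Cd3e, Cd4 and Lck nearly level.

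Transcription factors of effector cells rose in 21 of 25 tested members (84%, against 21.2% of all tested genes). Their median log2 fold change was 3.31. Batf (chromosome 12, 85686669 to 85709087), the AP-1 factor, had 69.4 and 103 CPM in Teff, against 32.9 and 32.7 CPM in Tnaive (log2 fold change 1.399 ± 0.27, edgeR adjusted p = 0.000416). Its partner Irf4 had 76.3 and 95.4 CPM in Teff, against 14.2 and 15.6 CPM in Tnaive (log2 fold change 2.53 ± 0.14, edgeR adjusted p = 8.29e-11). Id2, which blocks E proteins, had 593 and 408 CPM in Teff, against 30.2 and 43.9 CPM in Tnaive (log2 fold change 3.75 ± 0.22, edgeR adjusted p = 1.92e-10). Bhlhe40 had 68.2 and 125 CPM in Teff, against 0.509 and 1.398 CPM in Tnaive (log2 fold change 6.64 ± 0.75, edgeR adjusted p = 1.11e-06). Ikzf2, which encodes Helios, had 277 and 442 CPM in Teff, against 5.296 and 6.89 CPM in Tnaive (log2 fold change 5.88 ± 0.32, edgeR adjusted p = 7.98e-11). Prdm1, which encodes Blimp-1, had 27.9 and 28.6 CPM in Teff, against 8.45 and 10.5 CPM in Tnaive (log2 fold change 1.58 ± 0.27, edgeR adjusted p = 0.00014). The second Teff library was the higher for Batf, Irf4, Bhlhe40 and Ikzf2, and the first for Id2. The list median lay between 2.68 and 3.17 with any of the 4 libraries left out.

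Most chemokine receptors were higher in Teff. Of 21 tested members of the list, which also holds lipid receptors, 14 were called higher (21.2% of all tested genes were) and 2 lower. The falls were Ccr7, on which the cells were sorted, and S1pr1, a sphingosine phosphate receptor. Ccr2, a receptor of inflammatory monocytes and memory T cells, had 140.2 and 88.6 CPM in Teff, against 0.509 and 0.599 CPM in Tnaive (log2 fold change 7.66 ± 0.69, edgeR adjusted p = 5.66e-08). Ccr9, the receptor of the small intestine, had 133 and 61.2 CPM in Teff, against 7.94 and 9.29 CPM in Tnaive (log2 fold change 3.49 ± 0.35, edgeR adjusted p = 2.28e-07). At 5 CPM or more, 16 of 18 members were higher in the first Teff library than in the second.

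Receptors for cytokines moved both ways, with 12 of 26 called higher (46.2%, against 21.2% of all tested genes) and 9 lower (34.6%, against 14%). The beta chain of the interleukin-2 and interleukin-15 receptors, Il2rb (chromosome 15, 78479256 to 78495271), had 1191 and 938 CPM in Teff, against 26.4 and 25.9 CPM in Tnaive (log2 fold change 5.35 ± 0.22, edgeR adjusted p = 4.29e-12). Il2ra had 69.5 and 43.97 CPM in Teff, against 3.87 and 2.497 CPM in Tnaive (log2 fold change 4.15 ± 0.31, edgeR adjusted p = 4.37e-09), while the common chain Il2rg was not called (719 and 637 against 732 and 729.7 CPM). Il9r had 106 and 80.2 CPM in Teff, against 0.102 and 0 CPM in Tnaive (count ratio 1841, 330.1 to 72772). On the side of the falls, Il4ra had 130.1 and 97.5 CPM in Teff, against 489 and 456 CPM in Tnaive (log2 fold change -2.06 ± 0.28, edgeR adjusted p = 1.01e-05). Il6ra had 197 and 210.4 CPM in Teff, against 459 and 449 CPM in Tnaive (log2 fold change -1.16 ± 0.10, edgeR adjusted p = 3.31e-08). The interferon-gamma receptor chain Ifngr2 had 13.6 and 9.31 CPM in Teff, against 91.8 and 93.5 CPM in Tnaive (log2 fold change -3.02 ± 0.21, edgeR adjusted p = 1.4e-09). Both populations differed in every library for these 3 genes.

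Co-inhibitory receptors rose in 10 of 14 tested members (71.4%, against 21.2% of all tested genes). Btla, Cd5, Cd200r1 and Lair1 were not called. The log2 fold change of Lair1 was 0.87, and 1.44 without Teff 2. In a fit of the 4 libraries alone, Btla, Cd5 and Cd200r1 were called higher (edgeR adjusted p 0.000737 to 0.013). Lag3 had 94 and 219.9 CPM in Teff, against 1.22 and 1.897 CPM in Tnaive (log2 fold change 6.64 ± 0.67, edgeR adjusted p = 2.72e-07). Ctla4 had 52.3 and 93.2 CPM in Teff, against 6.72 and 6.29 CPM in Tnaive (log2 fold change 3.48 ± 0.24, edgeR adjusted p = 1.98e-09). Tigit had 51.8 and 123 CPM in Teff, against 0.204 and 0 CPM in Tnaive (count ratio 881, 243 to 7276). The adenosine-producing enzymes Nt5e (CD73, 208 and 318 against 38.9 and 33.5 CPM, 2.86 on the log2 scale) and Entpd1 (CD39, 34.4 and 33.2 against 0.509 and 0.2996 CPM, 6.35) rose as well. Lag3, Ctla4, Tigit and Nt5e were higher in the second Teff library.

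Among cytotoxic granule genes 10 of 16 were called higher (62.5%, against 21.2% of all tested genes) and 1 lower (6.25%, against 14%). Nkg7, a granule membrane protein, had 176 and 130.5 CPM in Teff, against 0.306 and 0.1997 CPM in Tnaive (log2 fold change 9.19 ± 0.33, edgeR adjusted p = 5.32e-13). Gzmk had 14.5 and 25.8 CPM in Teff, against 0 and 0.0999 CPM in Tnaive (count ratio 403, 72 to 15966). Gzmb had 8.599 and 5.11 CPM in Teff, against 0.204 and 0.1997 CPM in Tnaive (log2 fold change 5.01 ± 0.70, edgeR adjusted p = 1.28e-05). The pore-forming protein Prf1 was the member that fell, at 19.8 and 16.5 CPM in Teff, against 44.4 and 45.7 CPM in Tnaive (log2 fold change -1.31 ± 0.31, edgeR adjusted p = 0.00251).

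Small calcium-binding proteins, annexins and galectins rose in 13 of 16 tested members (81.25%, against 21.2% of all tested genes). S100a4 had 181 and 148 CPM in Teff, against 0.102 and 0.0999 CPM in Tnaive (count ratio 1624, 449 to 13415). S100a6 had 124 and 144 CPM in Teff, against 0.102 and 0.0999 CPM in Tnaive (count ratio 1328, 367 to 10973). Ahnak, a giant scaffold that binds the S100a10 and annexin A2 complex, had 1926 and 1657 CPM in Teff, against 87.9 and 84.2 CPM in Tnaive (log2 fold change 4.38 ± 0.20, edgeR adjusted p = 6.7e-12). Anxa2 had 105 and 127 CPM in Teff, against 2.34 and 3.096 CPM in Tnaive (log2 fold change 5.41 ± 0.28, edgeR adjusted p = 3.81e-11). Lgals1, galectin-1, had 231 and 203 CPM in Teff, against 44.1 and 41.9 CPM in Tnaive (log2 fold change 2.34 ± 0.20, edgeR adjusted p = 2.67e-08). S100a11 had 56.7 and 66.1 CPM in Teff, against 7.64 and 8.69 CPM in Tnaive (log2 fold change 2.91 ± 0.23, edgeR adjusted p = 8.66e-09). Emp3 alone fell (95.1 and 93.6 against 133 and 149 CPM, log2 fold change -0.58 ± 0.18, edgeR adjusted p = 0.0188), and was no longer called without Teff 1, Teff 2 or Tnaive 2.

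The T cell receptor machinery stood nearer the background, with 7 of 24 members called higher (29.2%, against 21.2% of all tested genes) and 3 lower (12.5%, against 14%). Cd4, on which the cells were sorted, was 1 of the 7. Cd3e had 737 and 846 CPM in Teff, against 672 and 700.1 CPM in Tnaive. Lck had 1107 and 1179 CPM in Teff, against 1199 and 1193 CPM in Tnaive. Neither was called, though Cd3e was called higher without Teff 1 (edgeR adjusted p = 0.045). Nfatc1, the calcium-responsive factor, had 575 and 732 CPM in Teff, against 232 and 222 CPM in Tnaive (log2 fold change 1.53 ± 0.17, edgeR adjusted p = 1.13e-06). Zap70 had 552 and 664 CPM in Teff, against 376 and 355 CPM in Tnaive (log2 fold change 0.74 ± 0.22, edgeR adjusted p = 0.0122, but 0.11 without Teff 2, 0.0503 without Tnaive 1 and 0.083 without Tnaive 2). Fyn had 845 and 961 CPM in Teff, against 552 and 533 CPM in Tnaive (log2 fold change 0.74 ± 0.08, edgeR adjusted p = 1.11e-06). The kinase Prkcq (log2 fold change -0.49 ± 0.08, edgeR adjusted p = 8.75e-05) and the exchange factor Rasgrp1 (log2 fold change -0.63 ± 0.14, edgeR adjusted p = 0.00117) were among those that fell.

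Genes of the BCL2 family moved both ways. Of 16 tested, 9 were called higher (56.2%, against 21.2% of all tested genes) and 4 lower (25%, against 14%), the falls being Bcl2, Mcl1, Bcl2l11 (Bim) and Bbc3 (Puma). Bcl2 had 142 and 137 CPM in Teff, against 281 and 271 CPM in Tnaive (log2 fold change -0.98 ± 0.16, edgeR adjusted p = 9.62e-05). Bcl2l1, which encodes Bcl-xL, had 46.7 and 42.3 CPM in Teff, against 19.6 and 16.9 CPM in Tnaive (log2 fold change 1.29 ± 0.14, edgeR adjusted p = 8.15e-07). Pmaip1 (Noxa), a pro-apoptotic member, had 13.4 and 19.5 CPM in Teff, against 0.509 and 0.499 CPM in Tnaive (log2 fold change 5.0 ± 0.33, edgeR adjusted p = 1.08e-09), while Bbc3 had 17.8 and 17.2 CPM in Teff, against 41.2 and 37.9 CPM in Tnaive (log2 fold change -1.18 ± 0.38, edgeR adjusted p = 0.0195). Without Teff 2 or without Tnaive 1 the falls numbered 2, since Bcl2l11 and Bbc3 were then not called, and Bbc3 lost its call without any of the 4 libraries (edgeR adjusted p 0.052 to 0.097).

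Of 30 cell cycle genes, 16 were called higher (53.3%, against 21.2% of all tested genes) and 1, the inhibitor Cdkn2d, lower. Mki67, a marker of cycling cells, had 119.6 and 91.9 CPM in Teff, against 6.11 and 6.79 CPM in Tnaive (log2 fold change 4.03 ± 0.56, edgeR adjusted p = 1.38e-05). Top2a had 72.3 and 63.2 CPM in Teff, against 9.78 and 10.7 CPM in Tnaive (log2 fold change 2.73 ± 0.57, edgeR adjusted p = 0.000949). Ccna2 had 12.4 and 8.302 CPM in Teff, against 0.509 and 0.899 CPM in Tnaive (log2 fold change 3.85 ± 0.71, edgeR adjusted p = 0.000254). The replication clamp gene Pcna was not called, at 58.6 and 68.8 CPM in Teff, against 58.6 and 61.4 CPM in Tnaive.

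Of 18 tested glycolysis genes, 6 were called higher (33.3%, against 21.2% of all tested genes) and 12 were not called, with a median log2 fold change of 0.30. Slc2a3, the glucose transporter GLUT3, had 111 and 87.9 CPM in Teff, against 53.8 and 59.6 CPM in Tnaive (log2 fold change 0.81 ± 0.12, edgeR adjusted p = 3.79e-05). Hk2 had 5.37 and 7.85 CPM in Teff, against 0.713 and 0.999 CPM in Tnaive (log2 fold change 2.93 ± 0.33, edgeR adjusted p = 1.12e-06). Slc16a3, a lactate exporter, had 11.2 and 10.1 CPM in Teff, against 2.34 and 3.295 CPM in Tnaive (log2 fold change 1.92 ± 0.24, edgeR adjusted p = 3.99e-06). Pfkp had 222 and 229 CPM in Teff, against 148 and 139 CPM in Tnaive (log2 fold change 0.65 ± 0.09, edgeR adjusted p = 9.52e-06). Ldha was not called (324 and 312 against 351 and 348 CPM). Gapdh was listed at 4.01 and 5.47 CPM in Teff, against 2.55 and 3.69 CPM in Tnaive, and Eno1 at 0 reads in all 4 libraries. Such genes have near-identical copies in the genome, so their values are uncertain.

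Interferon response genes stood near the background, with 5 of 25 called higher (20%) and 4 lower (16%), and a median of -0.0047. Mx1 rose (43.2 and 35.3 against 3.97 and 4.49 CPM, log2 fold change 3.21 ± 0.29, edgeR adjusted p = 4.98e-08), with Oas1a, Oas3, Isg20 and Rsad2, of which Isg20 and Rsad2 were not called without Tnaive 1 (edgeR adjusted p = 0.053 and 0.057). Isg20 was also not called without Teff 2 (0.155) or Tnaive 2 (0.11), nor Rsad2 without Teff 1 (0.097). Oas2 fell (16.5 and 10.8 against 65.2 and 60.8 CPM, log2 fold change -2.21 ± 0.37, edgeR adjusted p = 0.000103), with Ifit2, Oasl1 and Usp18, and Oasl1 was not called without Teff 2 (0.15) or Tnaive 1 (0.071). All but 1 of the 25 genes were higher in the first Teff library than in the second, and the median without the first was -0.20.

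**Figure D3:**
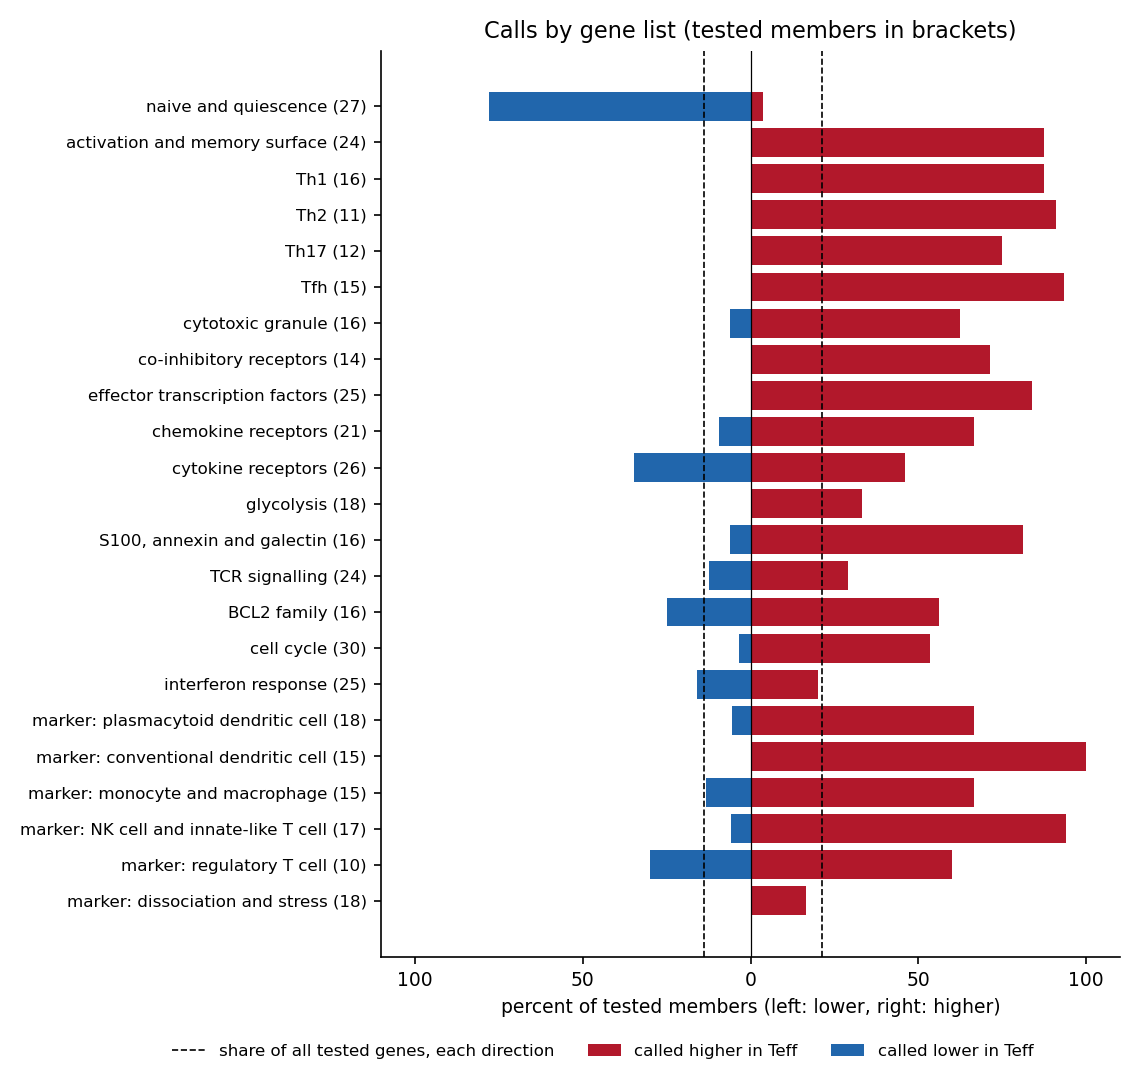
Percent of tested members called higher in Teff (red, right) and lower in Teff (blue, left) for each gene list with at least 10 tested members, given in brackets. Dashed lines mark the shares over all tested genes, 21.2% higher and 14% lower; the naive list extends far left of its line, most effector lists far right, and the interferon list lies near both.

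Several lists of markers of other cells were higher in Teff than in Tnaive, and some differed between the 2 Teff libraries. Some of these lists were also higher in eTreg than in cTreg. Plasmacytoid dendritic cell markers, 18 genes, all tested, had 12 called higher (66.7%, against 21.2% of all tested genes). Among them 1, Atp1b1, was called lower (5.56%, against 14%). The summed level of the 18 was 1085 and 571 CPM in Teff, against 526 and 518 CPM in Tnaive. In eTreg it was 501 and 527 CPM, against 555 and 555 CPM in cTreg. Tnaive also held Irf7, Pacsin1, Atp1b1 and Bst2, and the markers Irf7, Irf8, Runx2, Ccr9, Bst2 and Lair1 stand in other lists here. Siglech (chromosome 7, 55768178 to 55778925), the defining surface lectin, had 92.3 and 19.98 CPM in Teff, against 0.102 and 0 CPM in Tnaive (count ratio 1089, 195 to 43057). The factor Spib had 30.1 and 7.66 CPM in Teff, against 0.407 and 0.999 CPM in Tnaive (log2 fold change 4.72 ± 0.63, edgeR adjusted p = 9.95e-06). Tcf4 had 50.03 and 17.2 CPM in Teff, against 4.79 and 5.39 CPM in Tnaive (log2 fold change 2.72 ± 0.36, edgeR adjusted p = 7.68e-06). Irf8 had 165 and 54.8 CPM in Teff, against 8.96 and 9.79 CPM in Tnaive (log2 fold change 3.55 ± 0.36, edgeR adjusted p = 2.19e-07). Klk1 had 10.6 and 2.46 CPM in Teff and no read in Tnaive. These 5 genes were 2.92 to 4.62 times higher in the first Teff library than in the second, and 12 of the 18 markers were at least 2-fold higher in it. In a fit of the 4 libraries alone, 6 of the 18 were called higher and 2 lower. That fit called 2991 genes higher over all tested genes, against 2595 in the main fit, so its background share is not the 21.2% given above.

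Conventional dendritic cell markers were called higher in 15 of 15 tested members (of 17), 100% against 21.2% of all tested genes. Of the list, Ccr2, Batf3 and Cd8a also stand in other lists here. The call of Cd8a depended on single libraries, and Clec10a was not called in a fit of the 4 libraries alone (edgeR adjusted p = 0.169). The list's summed level was 753 and 470 CPM in Teff, against 58.7 and 57.2 CPM in Tnaive. The MHC class II genes and Cd74, the gene of their invariant chain, made up much of it, with H2-Ab1 at 83.6 and 53.6 CPM in Teff, against 2.44 and 2.596 CPM in Tnaive (log2 fold change 4.76 ± 0.29, edgeR adjusted p = 3.94e-10) and Cd74 at 218 and 125 CPM in Teff, against 11 and 9.19 CPM in Tnaive (log2 fold change 4.08 ± 0.26, edgeR adjusted p = 6.72e-10). Xcr1 and Clec9a, receptors of the cross-presenting subset, stood at 8.31 and 5.20 CPM and at 6.16 and 2.10 CPM in Teff, with 1 and 0 reads over the Tnaive libraries. Flt3 had 15.05 and 5.93 CPM in Teff, against 0.204 and 0.399 CPM in Tnaive (log2 fold change 5.06 ± 0.70, edgeR adjusted p = 2.01e-05) and Clec10a 12.5 and 1.37 CPM in Teff, again with the first library higher. In eTreg, sorted as hCD2+ cells, the same list summed to 290 and 300 CPM, against 69.7 and 67.4 CPM in cTreg. Of 15 tested monocyte and macrophage genes (of 20), 10 were called higher (66.7%, against 21.2% of all tested genes) and 2 lower (13.3%, against 14%). The list summed to 442 and 337 CPM in Teff, against 207 and 228 CPM in Tnaive. In eTreg it summed to 404 and 481 CPM, against 284.5 and 318 CPM in cTreg. Their defining genes were low: Csf1r had 3.71 and 2.28 CPM in Teff, against 0.407 and 0.899 CPM in Tnaive (log2 fold change 2.17 ± 0.64, edgeR adjusted p = 0.0123, but 0.097 without Teff 1 and 0.12 without Tnaive 1), and Fcgr1 had 0 and 2 reads and Cd5l 2 and 2 reads in Teff. Mpeg1 (161 and 37.04 against 0.713 and 0.599 CPM) and Cybb (83.5 and 91.7 against 0.611 and 0.799 CPM), phagocyte genes also read in other cells, were called higher, and Itgam (2.93 and 2.37 against 6.62 and 7.19 CPM) and Ctss (151 and 169 against 191 and 209 CPM) lower, the last not without Teff 1 or Tnaive 2 (0.20 and 0.17).

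NK and innate-like T cell markers were called higher in 16 of 17 tested members (of 26), all but Prf1. That was 94.1%, against 21.2% of all tested genes. Their summed level was 1762 and 1329 CPM in Teff, against 88.5 and 88.3 CPM in Tnaive, of which Il2rb was the largest part. In eTreg it was 992 and 996 CPM, against 973 and 945 CPM in cTreg. Klrk1, which encodes NKG2D, had 67.8 and 46.98 CPM in Teff, against 0.611 and 0.599 CPM in Tnaive (log2 fold change 6.54 ± 0.43, edgeR adjusted p = 8.68e-10). The chemokine Xcl1 had 31.95 and 26.3 CPM in Teff, against 0.102 and 0 CPM in Tnaive (count ratio 575, 103 to 22766). Ncr1, the defining NK receptor NKp46, had 9 and 12 reads in Teff, against 0 and 1 in Tnaive. The signalling adaptor Tyrobp had 34.5 and 10.5 CPM in Teff, against 0.713 and 0.399 CPM in Tnaive (log2 fold change 5.31 ± 0.60, edgeR adjusted p = 9.84e-07). Of the 14 members at 5 CPM or more, 13 were higher in the first Teff library.

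Defining markers of further cell types were low, while some members of their lists were not. The B cell list summed to 80.1 and 83.8 CPM in Teff, against 12.7 and 14.9 CPM in Tnaive, and most of the Teff sum was Cd22. In eTreg that list summed to 69.6 and 68.5 CPM, against 20.8 and 23.8 CPM in cTreg. The B cell gene Ms4a1 had 10 and 9 reads in Teff, against 4 and 6 in Tnaive. Pax5, the B cell lineage factor, had 0 and 1 reads in Teff, against 0 and 2 in Tnaive. Cd22, a member of that list, nonetheless had 57.4 and 68.5 CPM in Teff, against 0.917 and 0.899 CPM in Tnaive (log2 fold change 6.098 ± 0.45, edgeR adjusted p = 3.47e-09), and Cd79a was called lower (1.27 and 0.912 against 2.65 and 3.395 CPM). Cd8a had 2.35 and 0.912 CPM in Teff, against 0.611 and 0.399 CPM in Tnaive (log2 fold change 1.66 ± 0.55, edgeR adjusted p = 0.0256, but 0.39 without Teff 1, 0.060 without Tnaive 1 and 0.16 without Tnaive 2). Cd8b1 had 7.13 and 6.48 CPM in Teff, against 17.6 and 19.97 CPM in Tnaive. Of 11 neutrophil genes only Mmp9 was tested (88.7 and 58.1 against 0.204 and 0.399 CPM, log2 fold change 7.87 ± 0.69, edgeR adjusted p = 4.01e-08), and S100a8, Retnlg and Elane had at most 10 reads over the Teff libraries. The globin genes had 0 reads in all 4 libraries, though near-identical copies make that value uncertain. The erythroid list summed to 1.56 and 0.912 CPM in Teff, against 0.917 and 1.6 CPM in Tnaive, and the platelet list to 4.40 and 5.93 CPM in Teff, against 8.05 and 10.4 CPM in Tnaive. The mast cell and basophil list summed to 37.8 and 40.8 CPM in Teff, against 14.8 and 15.3 CPM in Tnaive. It was carried by Il3ra and Kit, with Mcpt8, Fcer1a and Ms4a2 at 0 reads in Teff. In eTreg it summed to 40.3 and 48.5 CPM, against 20.4 and 24.6 CPM in cTreg. The stromal list summed to 134 and 142 CPM in Teff, against 276 and 284 CPM in Tnaive, carried by Pecam1, with Lyve1, Pdgfra and Pdpn at 0 reads in Teff.

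The remaining marker lists were short. Plasma cell markers had 5 of 6 tested members called higher (83.3%, against 21.2% of all tested genes). Their sum was 199 and 206 CPM in Teff, against 64.0 and 74.2 CPM in Tnaive, and 309 and 311 CPM in eTreg. The Teff sum was carried by Xbp1, Irf4 and Prdm1, which effector T cells also express. Jchain, the defining plasma cell gene, stood at 1.37 and 1.73 CPM in Teff, against 0.306 and 0.0999 CPM in Tnaive, and was called higher, though not without Teff 2 (edgeR adjusted p = 0.055) or Tnaive 2 (0.096). CD8 T cell markers had 6 of 7 members called higher (85.7%, against 21.2% of all tested genes) and Cd8b1 lower. The rises included Nkg7, Ctsw, Cst7, Gzmk and Eomes. Of 3 tested gamma-delta T cell markers, 5830411N06Rik and Cd163l1 were called higher, with a list sum of 24.9 and 17.2 CPM in Teff, against 1.02 and 0.999 CPM in Tnaive, and the receptor gene segments were not used here. Innate lymphoid cell markers had 6 of 9 tested members called higher (66.7%, against 21.2% of all tested genes), most of the sum being Il7r and Id2. The part of other cells in the rises of the Th1, chemokine receptor and innate-like lists was not tested.

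The 2 Teff libraries thus differed by more than their dendritic genes. Over the 9909 tested genes at 5 CPM or more in a Teff library, the median log2 ratio of Teff 1 over Teff 2 was 0.0065, with 106 genes at least 2-fold higher in Teff 1 and 100 in Teff 2. Plasmacytoid markers had a median log2 ratio of 1.53, conventional dendritic markers 0.68, NK and innate-like markers 0.58 and Th1 genes 0.37. Tfh genes had -0.63, Treg markers -0.67 and dissociation stress genes -0.59, while naive genes had 0.0089 and T cell receptor genes -0.049. At 20 CPM or more in a Teff library, 5 genes were at least 4-fold higher in Teff 1, among them Siglech, Mpeg1, Cacna1e and Kmo, of which Mpeg1 and Kmo are named after their values were seen. Another 7 were at least 4-fold higher in Teff 2: Fos, Fosb, Ecel1, Dusp1, Jun, Ppp1r15a and Erdr1. Ecel1 was called higher in Teff, but not without Teff 2 (edgeR adjusted p = 0.26), Tnaive 1 (0.0999) or Tnaive 2 (0.102).

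The immediate early genes separated libraries by number in both populations. Fos had 11.9 and 164 CPM in Teff, against 18.3 and 117 CPM in Tnaive, Jun 29.7 and 149 CPM in Teff, against 57.2 and 274 CPM in Tnaive, Dusp1 30.4 and 182 CPM in Teff, against 17.7 and 81.5 CPM in Tnaive. Ppp1r15a had 38.2 and 192 CPM in Teff, against 76.7 and 249 CPM in Tnaive. In each, the library numbered 2 was the higher in Teff and in Tnaive alike, and the 4 libraries overlapped between populations. None of these was called, nor were Erdr1 and Junb. Without Teff 2, Fos (-2.505), Jun (-2.48) and Ppp1r15a (-2.09) were called lower in Teff (edgeR adjusted p 0.030 to 0.044), and Dusp1 was called higher without Teff 1 (1.88, edgeR adjusted p = 0.018) or Tnaive 2 (2.58, 0.022). The summed level of the 18 dissociation and stress genes was 1751 and 3160 CPM in Teff, against 1934 and 2919 CPM in Tnaive. Only Fosb, Egr2 and Ier3 were called higher (16.7%, against 21.2% of all tested genes). The Fosb call depended on single libraries, Teff 2 most (log2 fold change 3.03, and 0.71 without that library).

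**Figure D4:**
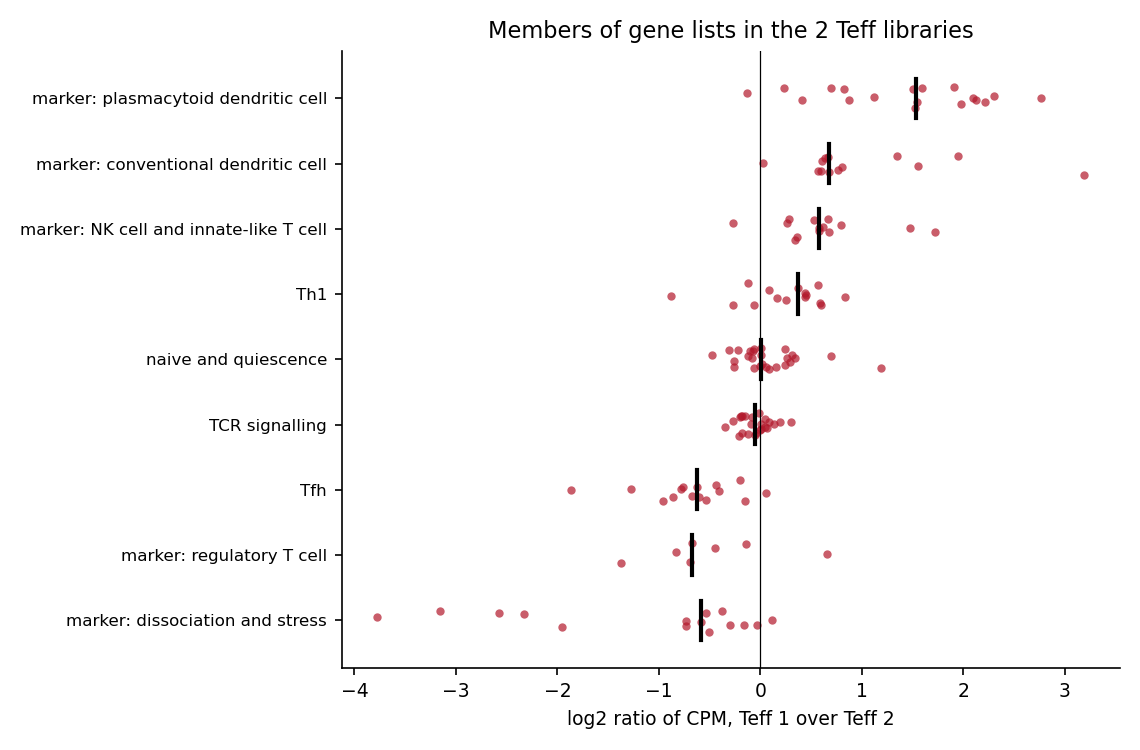
Log2 ratio of CPM in Teff 1 over Teff 2 (horizontal axis) for members of 9 gene lists at 5 CPM or more in a Teff library. Each point is a gene and each black bar a list's median; plasmacytoid markers lie to the right (median 1.53), Tfh genes (-0.63), Treg markers (-0.67) and stress genes (-0.59) to the left, and naive genes around 0.

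Most Treg markers were higher in Teff, though not Foxp3. Of 10 members, 6 were called higher (60%, against 21.2% of all tested genes) and 3 (Foxp3, Ikzf4 and Gpr83) lower (30%, against 14%). The call of Ikzf4 was lost without Teff 1 (log2 fold change -0.315) or Tnaive 1 (-0.445). Nrp1, which encodes neuropilin-1, had 168 and 273 CPM in Teff, against 6.82 and 6.19 CPM in Tnaive (log2 fold change 5.08 ± 0.22, edgeR adjusted p = 4.56e-12). Their summed level was 691 and 1008 CPM in Teff, against 108 and 104 CPM in Tnaive, and 4375 and 4223 CPM in eTreg. Foxp3 had 3 reads in each Teff library, after the sort against its hCD2 reporter.

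The change from Tnaive to Teff was set against that from cTreg to eTreg, which shares no library with it. Of the 2595 genes called higher in Teff, 1751 (67.5%) were also among the 2302 called higher in eTreg (18.8% of tested genes; 76.1% of that list). Of the 1717 called lower in Teff, 1013 (59%) were also among the 1498 called lower in eTreg (12.3% of tested genes; 67.6% of that list). Genes called in opposite directions numbered 56 higher in Teff and lower in eTreg, and 12 the other way. The difference between the changes was itself called in 663 genes (5.42%), 471 with the more positive change in conventional cells (3.85%) and 192 in Treg (1.57%). Without the second cTreg library the count was 426, and with only the 8 libraries of these populations it was 1183.

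Igfbp4 had no called difference between the changes. Igfbp4 stood at 9.95 ± 2.32 CPM in Teff, 1233 ± 67.7 in Tnaive, 4.02 ± 0.529 in eTreg and 454 ± 65.5 in cTreg (difference -0.13 ± 0.30, edgeR adjusted p = 0.995; means ± SD, n = 2 each). Nor had Batf (difference -0.54 ± 0.38, edgeR adjusted p = 0.676) or Maf (difference 0.99 ± 0.39, edgeR adjusted p = 0.208).

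Several Th1 and cytotoxic genes rose more in conventional cells. Of the 16 tested Th1 genes, 8 had a called difference, all on that side, against 3.85% of all tested genes. Other lists leaned the same way, with 10 of 24 activation and memory surface genes and 10 of 25 effector transcription factors. So did 6 of 18 plasmacytoid and 6 of 17 NK and innate-like markers, with no call on the Treg side in these lists. The Th2 list had 0 of 11, the T cell receptor list 1 of 24 and the interferon list 1 of 25. Cxcr3 stood at 375 ± 46.1 CPM in Teff, 0.456 ± 0.363 in Tnaive, 164 ± 15.9 in eTreg and 2.42 ± 0.226 in cTreg (difference 3.58 ± 0.73, edgeR adjusted p = 0.00419). Tbx21 stood at 146 ± 31.2 CPM in Teff, 0.454 ± 0.0776 in Tnaive, 23.7 ± 2.58 in eTreg and 1.11 ± 0.246 in cTreg (difference 3.89 ± 0.80, edgeR adjusted p = 0.00434), and Nkg7 at 153 ± 32.4 CPM in Teff, 0.253 ± 0.0748 in Tnaive, 21.1 ± 0.814 in eTreg and 3.54 ± 0.881 in cTreg (difference 6.61 ± 0.48, edgeR adjusted p = 6.47e-08). Both effector populations were above their resting counterparts in these genes. The difference for Cxcr3 was not called without Tnaive 2 (edgeR adjusted p = 0.052), nor that for Tbx21 without cTreg 2 (0.068). Eomes stood at 19.8 ± 2.64 CPM in Teff, 3.52 ± 0.949 in Tnaive, 0.671 ± 0.138 in eTreg and 3.97 ± 0.829 in cTreg (difference 5.03 ± 0.57, edgeR adjusted p = 1.22e-05), so that it was higher in Teff than in Tnaive but lower in eTreg than in cTreg.

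Genes that resting Treg already hold formed another kind of difference. Il2rb stood at 1064 ± 179 CPM in Teff, 26.1 ± 0.362 in Tnaive, 957 ± 2.29 in eTreg and 933 ± 25.6 in cTreg (difference 5.31 ± 0.28, edgeR adjusted p = 1.31e-09), level between the Treg populations. Il2ra stood at 56.7 ± 18.03 CPM in Teff, 3.18 ± 0.971 in Tnaive, 384 ± 57.6 in eTreg and 658 ± 10.2 in cTreg (difference 4.93 ± 0.38, edgeR adjusted p = 1.47e-07), and Ikzf2 at 359.8 ± 116 CPM in Teff, 6.09 ± 1.13 in Tnaive, 1527 ± 24.1 in eTreg and 686 ± 14.5 in cTreg (difference 4.73 ± 0.39, edgeR adjusted p = 3.18e-07). For these, Tnaive were the low population of the 4. Itgb1 (difference 1.402 ± 0.19, edgeR adjusted p = 8.23e-05), Ahnak (difference 2.21 ± 0.25, edgeR adjusted p = 1.02e-05), Cd44 (difference 1.38 ± 0.19, edgeR adjusted p = 0.000124) and P2rx7, the ATP-gated channel (difference 3.21 ± 0.19, edgeR adjusted p = 3.95e-09), likewise rose more in conventional cells. Tnaive were sorted on low CD44, so the Cd44 difference was shaped by the gate and is no finding. Among the falls, Satb1 fell less in conventional cells (268 ± 37.5 CPM in Teff, 1199 ± 53.4 in Tnaive, 65.5 ± 1.34 in eTreg and 776 ± 7.06 in cTreg; difference 1.41 ± 0.19, edgeR adjusted p = 7.19e-05) and Lef1 fell more (difference -0.78 ± 0.17, edgeR adjusted p = 0.00587).

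By fitted log2 change, the 5 largest differences on the conventional side were Adam23, Aqp9, Prr5l, Peli2 and Ly6d. Their size and order are uncertain, since some groups held few or no reads. Among these were Tnaive for Prr5l and Adam23 (0.102 and 0 CPM for Adam23) and eTreg for Aqp9. Prr5l, a partner of the mTORC2 kinase complex, stood at 12.96 ± 1.43 CPM in Teff, 0.0509 ± 0.07201 in Tnaive, 2.16 ± 0.617 in eTreg and 4.01 ± 0.216 in cTreg (edgeR adjusted p = 9.34e-09). Aqp9, a water and glycerol channel, stood at 30.1 ± 8.53 CPM in Teff, 1.41 ± 0.123 in Tnaive, 0 ± 0 in eTreg and 0.634 ± 0.364 in cTreg (edgeR adjusted p = 2.55e-05), and Ly6d, also a plasmacytoid marker, at 18.4 ± 15.04 CPM in Teff, 0.607 ± 0.294 in Tnaive, 0.191 ± 0.135 in eTreg and 2.24 ± 1.49 in cTreg (edgeR adjusted p = 4.87e-05). Adam23 (edgeR adjusted p = 0.0418) and the ubiquitin ligase Peli2 (edgeR adjusted p = 0.00065) had at most 7.66 CPM in a Teff library, and the Adam23 difference was not called without any one of the 8 libraries (edgeR adjusted p 0.061 to 0.19). On the Treg side, Nav2 stood at 135 ± 32.1 CPM in Teff, 24.1 ± 0.262 in Tnaive, 318 ± 61.3 in eTreg and 5.99 ± 0.6303 in cTreg (difference -3.24 ± 0.48, edgeR adjusted p = 0.000208), and Alox8, a lipoxygenase, at 3.67 ± 2.29 CPM in Teff, 1.46 ± 0.194 in Tnaive, 30.4 ± 1.73 in eTreg and 0.7699 ± 0.108 in cTreg (difference -3.95 ± 0.75, edgeR adjusted p = 0.00228). The rise of Alox8 in Teff was itself not called without Teff 2 (edgeR adjusted p = 0.62), Tnaive 1 (0.19) or Tnaive 2 (0.12). Myo10, an unconventional myosin, stood at 5.56 ± 0.398 CPM in Teff, 76.3 ± 0.0817 in Tnaive, 5.27 ± 1.37 in eTreg and 7.85 ± 0.871 in cTreg (difference -3.201 ± 0.37, edgeR adjusted p = 1.57e-05), so that the fall was that of conventional cells. Abhd15 stood at 16.5 ± 5.94 CPM in Teff, 16.7 ± 0.588 in Tnaive, 3.21 ± 0.0572 in eTreg and 0.337 ± 0.0558 in cTreg (difference -3.22 ± 0.64, edgeR adjusted p = 0.00312), and Foxp3 (difference -3.17 ± 0.47, edgeR adjusted p = 0.000228) was the other of the 5. Teff and Tnaive were both sorted as hCD2-, so the Foxp3 difference rests on the few reads left by that gate and is no finding.

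**Figure D5:**
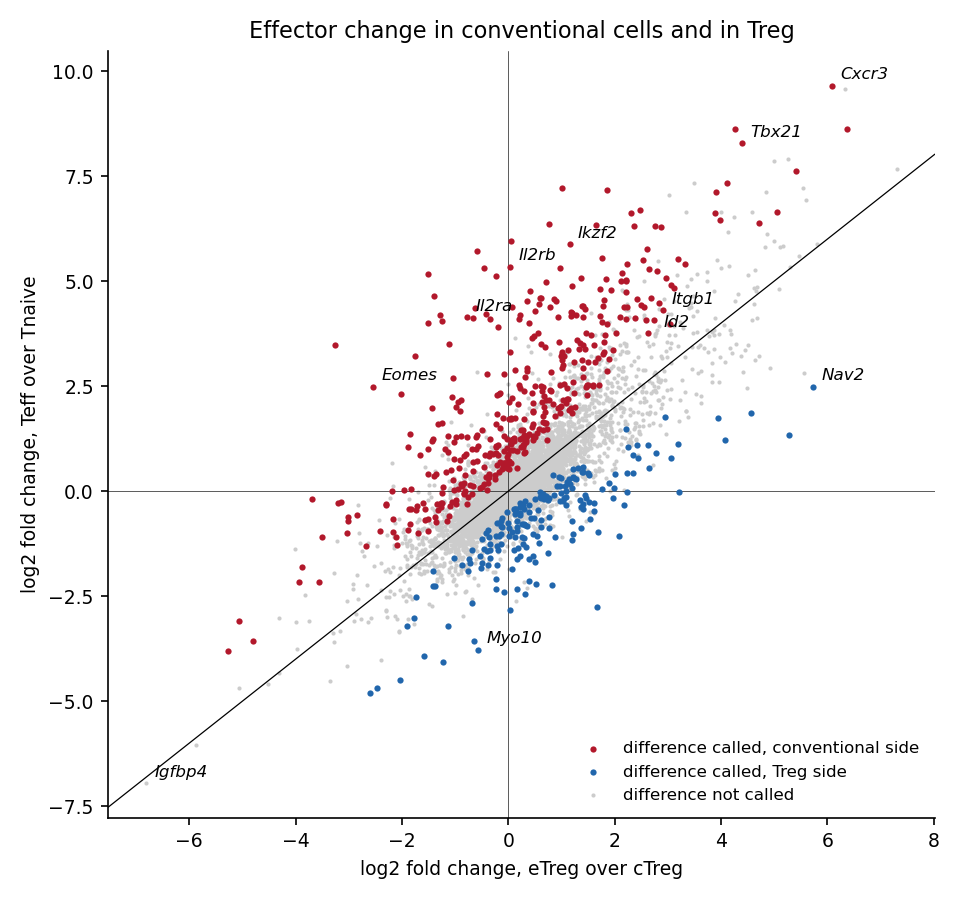
Log2 fold change of Teff over Tnaive (vertical axis) against that of eTreg over cTreg (horizontal axis) for the 10999 tested genes with at least 0.3 CPM in all 4 groups and at least 1 CPM in Teff or Tnaive. Red points have a called difference on the conventional side, blue points on the Treg side, and the diagonal marks equal changes; Il2rb lies high at almost no change in Treg, and Igfbp4 lies on the diagonal at the lower left.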

How the data were processed

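The authors deposited read counts per gene, not normalized, for 26 poly(A) RNA-seq libraries in 2 tables, which had 0 differing values where both hold a library. Per the submitters' processing notes, reads were aligned to mm10 with STAR 2.6.1c; the counting tool and strand setting are not given in the sources used here, so overlapping genes and close paralogs are uncertain. Another 4 columns, which no sample's labels name, were left out. T cell receptor and immunoglobulin segments were not analysed here, and some genes and sort markers are not reported here. No row lacked a gene name.

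The work used edgeR 4.0.16 and limma 3.58.1 under R 4.3.3. The edgeR expression filter kept 12227 of 24411 genes, and these held 99.9% or more of the reads in each library. After TMM scaling, 1 quasi-likelihood model (robust option) was fitted to all 26 libraries, with a coefficient for each of 13 groups (13 residual degrees of freedom, common dispersion 0.0147). Contrasts were Teff minus Tnaive, eTreg minus cTreg, and the difference of these. P-values were adjusted by Benjamini-Hochberg over all tested genes. The SE was taken as the size of the log2 change over the root of its F statistic. Chi-square tests between the 2 libraries of a population gave 7.67 per degree of freedom for Teff and 3.82 for Tnaive. In the other groups of the model they gave 3 (cTreg) to 29.9 (BATF knockout Treg). Folds against 0 reads use a floor of 3 counts over the group, and 1 to 3 reads give a count ratio with a 95% exact interval; both cover counting error only. Alternatives included DESeq2 1.42.0. The model was tested on simulated data with known changes.

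The comparison, the 17 function lists and 16 marker lists, written from general knowledge, and the naming rule for genes were all picked with earlier results of these data known. Named by rule were Foxp3 and Batf; the 10 largest called changes in each direction at 5 CPM or more with separate libraries; the 10 of highest level among 4-fold changes in each direction; up to 8 called and 4 uncalled members of each function list; marker list members; the 5 largest differences in each direction; and the 10 largest ratios between Teff libraries at 20 CPM or more. Other genes named were chosen after their values were seen. Not all genes named by the rule are described. Gene positions are spans on mm10 from GENCODE M21, whose symbols matched 11784 tested genes, and promoters are from RefSeq GRCm38.p6.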

Additional observations from a re-analysis of the deposited data

Results flagged for a closer look

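A difference between the change in conventional cells and the change in Treg was called in 663 genes, by the contrast of the 2 changes in the model of all 26 libraries. Among the genes described above, the called differences with the more positive change in conventional cells had these edgeR adjusted p-values. For Th1 and cytotoxic genes they were 0.0042 for Cxcr3, 0.0043 for Tbx21, 6.5e-08 for Nkg7 and 1.2e-05 for Eomes. For genes also held by resting Treg they were 1.3e-09 for Il2rb, 1.5e-07 for Il2ra, 3.2e-07 for Ikzf2 and 4e-09 for P2rx7. Adhesion and scaffold genes had 8.2e-05 for Itgb1, 1e-05 for Ahnak and 0.00012 for Cd44, which is no finding since Tnaive were sorted on low CD44. The fall of Satb1 was smaller in conventional cells at 7.2e-05. The largest fitted differences on that side, of uncertain order, had 9.3e-09 for Prr5l, 2.5e-05 for Aqp9, 4.9e-05 for Ly6d, 0.00065 for Peli2 and 0.042 for Adam23.

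On the Treg side, the edgeR adjusted p-values of the difference were 0.0059 for Lef1, 0.00021 for Nav2, 0.0023 for Alox8, 1.6e-05 for Myo10, 0.0031 for Abhd15 and 0.00023 for Foxp3. These genes were described with results in view, so the values single them out for a closer look and no more. The Foxp3 value is no finding, since Teff and Tnaive were both sorted against its hCD2 reporter. With 2 libraries in each population, single libraries were not tested as outliers.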

How the results depend on the processing

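Counts of calls kept within 1.5 times of 2595 higher and 1717 lower under all alternatives tried. With all libraries of both populations they ranged from 2121 (stricter filter) to 2991 (only the 4 libraries) higher and from 1433 (library totals alone) to 2348 (only the 4 libraries) lower, with 2619 and 1839 in DESeq2, and no gene was called in opposite directions. Leaving out 1 of the 4 libraries gave 2130 to 2277 higher and 1154 to 1285 lower. The percent of calls that were higher was 60.2, and 66.6 under library totals alone, which moved the median change to 0.068. The 663 called differences became 1183 with only the 8 libraries of the 4 populations, 843 in DESeq2 and 426 to 608 with 1 of the 8 left out; the cause was not tested. The labels state no pairing, and with 2 numbers it cannot be shown: deviations of same-numbered libraries correlated at 0.153 between Teff and Tnaive, and with a replicate block 2578 genes were called higher, 1690 lower and 657 different. Among the genes named, the block called Lair1 higher (edgeR adjusted p = 0.025) and lost the difference of Adam23 (0.058), and changed no other call.

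Signs reversed only in results that were not called with all libraries. The log2 change of Cd2 was 0.015 under library totals alone. With 1 library left out at a time, the log2 changes lay between -2.505 and 2.26 for Fos, -2.48 and 0.65 for Jun, -0.95 and 1.32 for Junb, -0.71 and 2.58 for Dusp1, -2.09 and 0.59 for Ppp1r15a and -2.31 and 0.70 for Erdr1. They lay between -0.040 and 0.65 for Bst2, -0.090 and 0.31 for Irf7, -0.076 and 1.44 for Lair1, -0.10 and 0.012 for Cd2 and -0.035 and 0.20 for Pcna. The difference between the changes lay between -0.39 and 0.089 for Igfbp4. With only the 4 libraries, Siglech, Irf8, Tcf4, Klk1, Mpeg1, Clec10a, Cebpa, Fbn2, Adam11, Alox8, Ecel1, Fosb, Gadd45g, Ikzf4 and Zfp516 were not called (edgeR adjusted p 0.0505 to 0.32). The same fit newly called Btla, Cd5, Cd200r1 and Runx3 higher and Klf2, Ets1, Cd69, Itgb7 and Pacsin1 lower (0.000551 to 0.035). Library totals alone newly called Cd3e, Lair1 and Runx3 higher and lost Ctss (0.113). With no filter on low counts Lair1 was newly called and Alox8, Bbc3, Cd4, Ecel1, Fosb and Gadd45g were not (0.052 to 0.18). DESeq2 newly called Areg and Cd3e, and its size factors in the edgeR model lost Fosb (0.0503). Depth limits genes of few reads, such as the interleukins Il5, Il13 and Il17a, most.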

Other observations

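Gene families outside the lists were grouped by symbol after results were known, and are given as counts and values. Cytosolic ribosomal protein genes were lower in Teff: of 80 tested, 48 were called lower (60%, against 14% of all tested genes) and 1, Rps4l, higher, with a median log2 change of -0.70. Rps3, of the small subunit, had 1741 and 1852 CPM in Teff, against 2946 and 3289 CPM in Tnaive (log2 fold change -0.80 ± 0.11, edgeR adjusted p = 1.94e-05), and Rps20 151 and 162 CPM in Teff, against 341 and 375 CPM in Tnaive (log2 fold change -1.19 ± 0.11, edgeR adjusted p = 4.21e-08). The median was -0.64 under library totals alone and -0.70 with the DESeq2 size factors, and 29 to 40 were called lower with 1 library left out. Such genes have many near-identical copies, so single values are uncertain. Genes of other housekeeping complexes showed no such shift. Of 74 mitochondrial ribosomal proteins 1 was called higher and 2 lower, of 35 NADH dehydrogenase subunits 1 higher and 1 lower, and of 37 proteasome subunits 2 higher, with medians of -0.0063, 0.037 and 0.11.

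The shares of members called in adhesion, guidance and serpin families stand beside 21.2% called higher and 14% lower over all tested genes. Of 22 tested integrin chains 15 were called higher (68.2%) and 5 lower (22.7%). Itga1, the alpha chain of the collagen receptor VLA-1, had 19.1 and 14.7 CPM in Teff and no read in Tnaive (at least 111-fold higher), whereas Itga6, a laminin receptor chain, fell (78.3 and 80.6 against 283 and 266 CPM, log2 fold change -1.79 ± 0.13, edgeR adjusted p = 2.48e-09), as did Itga5 (-1.32 ± 0.24). Of 19 semaphorins, plexins and neuropilins 10 were called higher (52.6%), among them Plxnc1 (94.5 and 96.2 against 20.6 and 21.97 CPM, log2 fold change 2.16 ± 0.16, edgeR adjusted p = 4.04e-09). Of 8 sphingosine and lysophospholipid receptors 5 were called higher (62.5%), among them S1pr2, which holds cells in follicles (46.7 and 63.2 against 9.98 and 9.09 CPM, log2 fold change 2.53 ± 0.18, edgeR adjusted p = 3.44e-09), and S1pr1 was lower. Of 13 serpins 8 were called higher (61.5%), with Serpina3g at 127 and 121 CPM in Teff, against 0.306 and 0.2996 CPM in Tnaive (log2 fold change 8.63 ± 0.35, edgeR adjusted p = 2.43e-12).

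Some genes were called in opposite directions in the 2 changes, and those named here were chosen after their values were seen. Coro2a, a coronin, stood at 125 ± 22.6 CPM in Teff, 2.38 ± 0.96 in Tnaive, 231 ± 6.78 in eTreg and 348 ± 0.145 in cTreg, and Lmo4, a LIM-domain cofactor, at 88.3 ± 4.95 CPM in Teff, 35.5 ± 2.93 in Tnaive, 10.9 ± 1.79 in eTreg and 24.02 ± 0.206 in cTreg, both higher in Teff than in Tnaive and lower in eTreg than in cTreg. Sepp1, which encodes selenoprotein P, stood at 135 ± 12.1 CPM in Teff, 339.6 ± 2.92 in Tnaive, 168 ± 6.99 in eTreg and 135 ± 3.67 in cTreg, lower in Teff than in Tnaive and higher in eTreg than in cTreg (means ± SD, n = 2 each).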
